A study of Mus musculus with 16 samples.

Results

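Interneuron markers and neuropeptides are represented by 10 of the 19938 genes measured: Gad1, Gad2, Pvalb, Calb1, Calb2, Sst, Npy, Vip, Cck and Reln. The genes were taken by name, and each was read from its only probe set annotated with that symbol alone. The series holds 16 Affymetrix arrays of total RNA from mouse brain, 4 for each of 4 groups. For PDGF+p53-/- tumors, p53-floxed mice with wild-type RBPjk received a retrovirus (PDGF-IRES-Cre) that expresses Cre recombinase and PDGF-B, which drives growth of glial precursors. PDGF+p53-/-RBPjk-/- tumors arose from the same virus in animals whose p53 and RBPjk genes were both floxed, RBPjk encoding the DNA-binding effector of Notch signaling. In p53-/-RBPjk-/- tumors both genes were deleted without added PDGF-B by the transgene Hes5::CreERT2, whose Cre is expressed in Hes5+ cells. Control brain tissue was normal brain, wild type for all 3 genes, and the labels name no brain region for it. Tumors were taken when mice showed symptoms, located by a Cre-dependent GFP reporter and microdissected. The sources used here give neither the age of the animals nor whether the arrays of a group came from separate animals, so each p-value reflects the spread between these samples, which may be in part technical.

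Inhibitory interneurons make the transmitter GABA from glutamate through the glutamate decarboxylases encoded by Gad1 and Gad2. Their main classes are told apart by calcium-binding proteins (parvalbumin from Pvalb, calbindin from Calb1, calretinin from Calb2) and by neuropeptides (somatostatin from Sst, neuropeptide Y from Npy, vasoactive intestinal peptide from Vip, cholecystokinin from Cck), and some secrete reelin. None of these genes is private to cortical interneurons: striatal projection neurons and Purkinje cells are GABAergic, Purkinje cells hold parvalbumin and calbindin, cerebellar granule cells hold calretinin, and many excitatory neurons express Cck.

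All 10 genes were lower in each of the 3 tumor types than in control brain. In PDGF+p53-/- tumors the differences ran between -4.06 for Calb1 and -0.85 for Calb2 on the log2 scale, with a median of -2.87, against a median of -0.04 over all genes. Where 3 values follow each other without names, they belong to PDGF+p53-/-, PDGF+p53-/-RBPjk-/- and p53-/-RBPjk-/- tumors in this order. PDGF+p53-/-RBPjk-/- tumors gave a median of -2.66 over the 10 genes, and p53-/-RBPjk-/- tumors gave -3.48, against medians of -0.03 and -0.02 over all genes. The linear models of limma, with Benjamini-Hochberg adjustment over all genes and a threshold of 0.05, called 10 of 10 lower in each tumor type. The same rule called 17.6% of all genes lower in PDGF+p53-/- tumors, 17.9% in PDGF+p53-/-RBPjk-/- tumors and 20.4% in p53-/-RBPjk-/- tumors. Of the 120 tumor values of these genes, 119 lay below every control value of the same gene. Separation of all 4 tumor arrays below all 4 control arrays held for 10, 10 and 9 of the 10 genes and for 17.3%, 18% and 19.3% of all genes. The 3 comparisons share the control arrays, so they are not independent of each other. In bulk tissue, fewer cells of a type and less RNA per cell cannot be told apart. Control brain had the highest mean for 10 of 10 genes, and the lowest mean fell in p53-/-RBPjk-/- tumors for 7 of them, in PDGF+p53-/- tumors for Pvalb and Reln, and in PDGF+p53-/-RBPjk-/- tumors for Calb2.

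**Figure D1:**
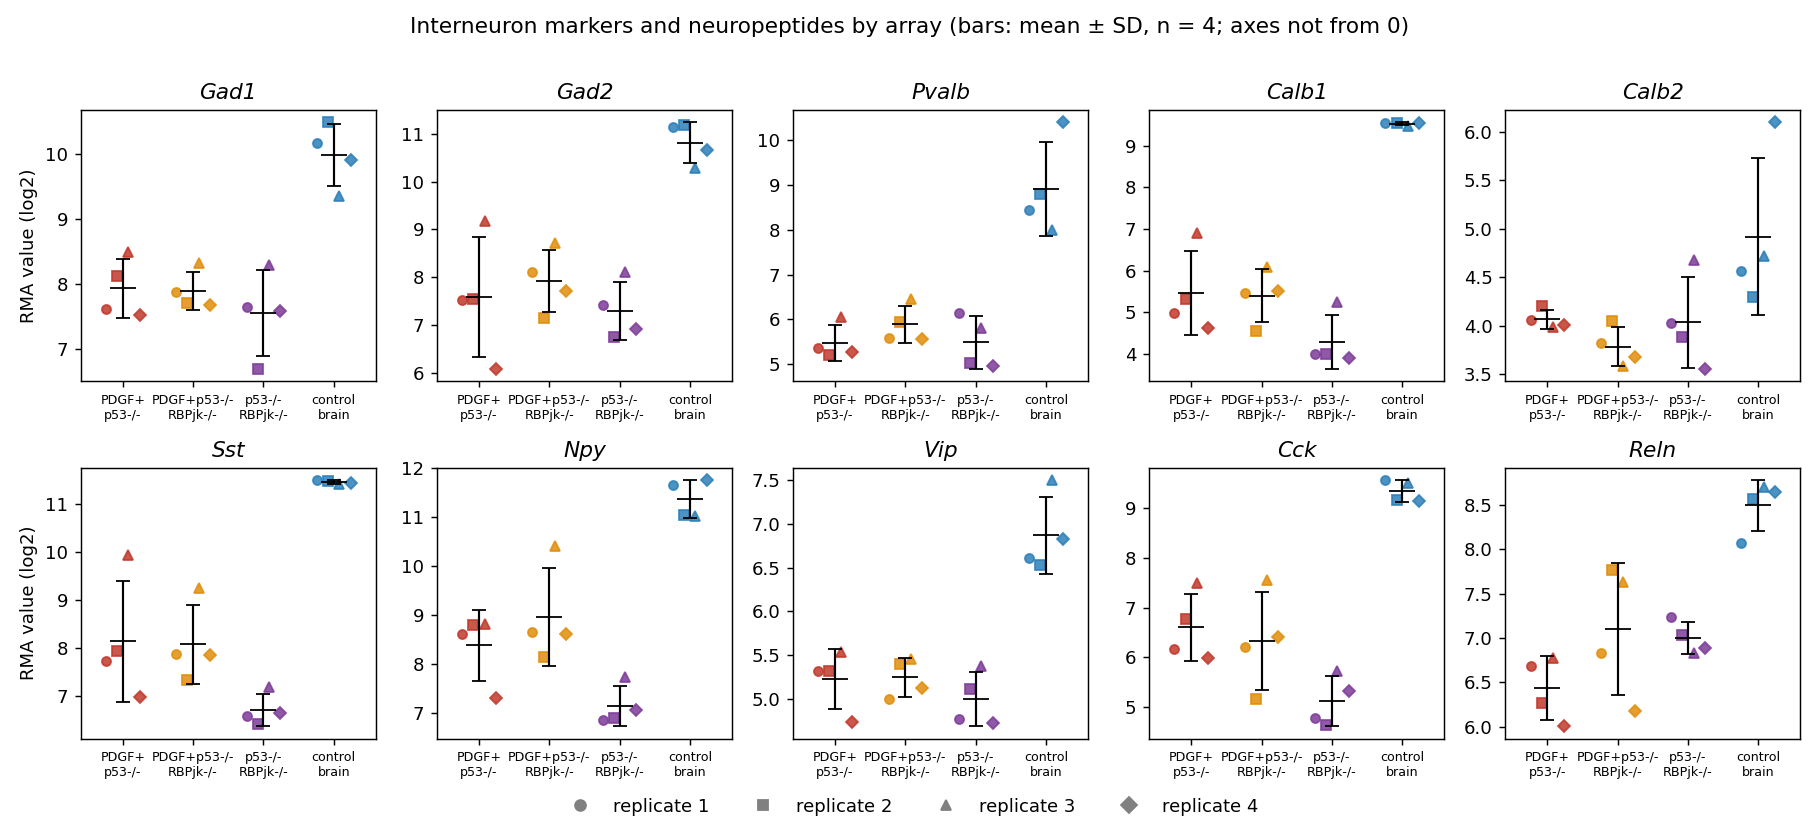
Deposited RMA values (log2) of the 10 genes on the 16 arrays, with tumor groups on the left and control brain on the right of each panel; marker shape gives the replicate number, and bars give mean ± SD (n = 4). Calb2 in p53-/-RBPjk-/- tumors (3.56 to 4.67) is the one tumor group that overlaps control brain (4.29 to 6.10).

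**Figure D2:**
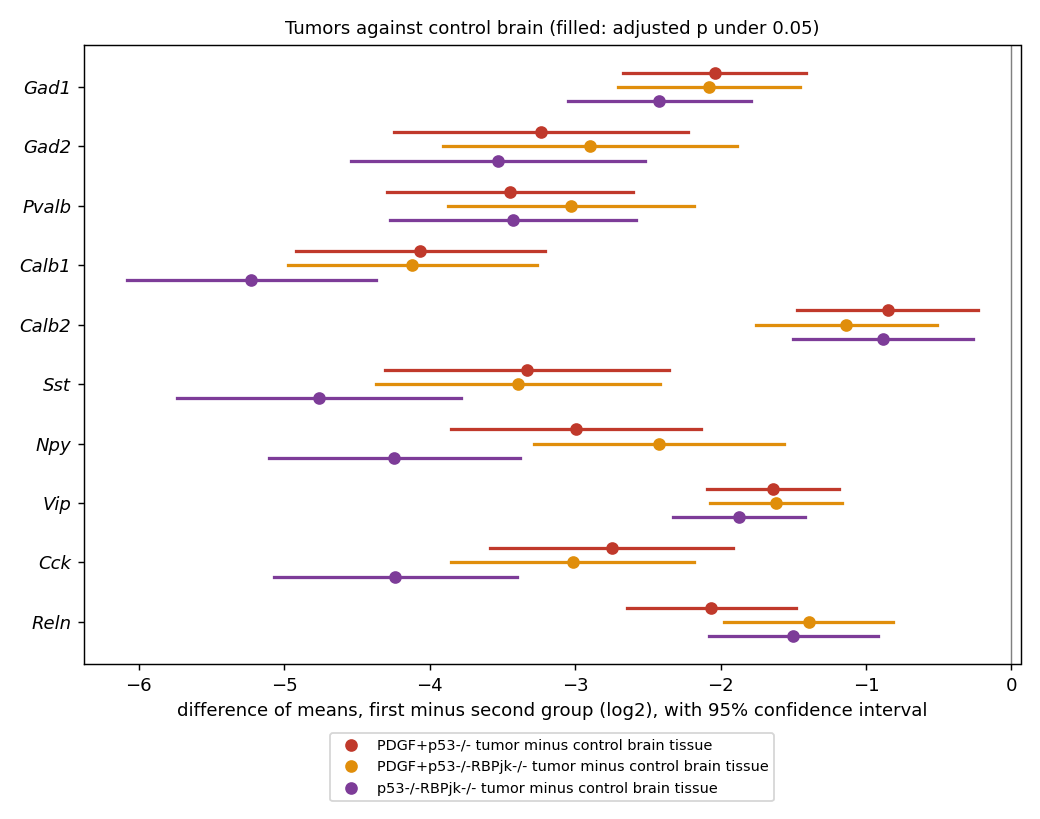
Difference between each tumor type and control brain (tumor minus control, log2) with the 95% confidence interval of the limma fit, 1 row per gene and 1 color per tumor type; filled circles have an adjusted p under 0.05. Every point lies left of 0, with Calb1 in p53-/-RBPjk-/- tumors farthest at -5.23 and Calb2 nearest to 0.

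Neuronal RNA in general was lower in the tumors too. The mean of 12 pan-neuronal genes was 7.62 to 8.64 in PDGF+p53-/- tumors, 7.62 to 8.52 in PDGF+p53-/-RBPjk-/- tumors, 7.02 to 7.96 in p53-/-RBPjk-/- tumors and 10.23 to 10.48 in control brain. Each of the 12 fell in every tumor type, with medians of -2.26, -2.54 and -3.12, and so did 9, 9 and 11 of 11 markers of excitatory neurons. Markers of oligodendrocyte precursors rose in 8 of 8 cases in each tumor type, with medians of 2.37, 2.26 and 1.93. Of all genes, limma called 13.6% higher in PDGF+p53-/- tumors, 15.7% in PDGF+p53-/-RBPjk-/- tumors and 16.4% in p53-/-RBPjk-/- tumors.

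The GABA-synthesizing enzymes fell by about 2 to 3.5 log2 units. Gad1, the enzyme form that serves the general GABA pool, read 7.61, 8.12, 8.49 and 7.53 in PDGF+p53-/- tumors (replicates 1 to 4), 7.88, 7.70, 8.32 and 7.69 in PDGF+p53-/-RBPjk-/- tumors, 7.65, 6.70, 8.30 and 7.58 in p53-/-RBPjk-/- tumors and 10.17, 10.48, 9.36 and 9.90 in control brain. The tumor groups lay on top of each other and stayed below control brain by at least 0.87, the gap between the highest PDGF+p53-/- array and the lowest control array. The difference from control was -2.04 in PDGF+p53-/- tumors, -2.08 in PDGF+p53-/-RBPjk-/- tumors and -2.42 in p53-/-RBPjk-/- tumors, each ± 0.30 (SE). The limma adjusted p was 3.99e-05, 2.83e-05 and 4.04e-06. Gad2, the synapse-associated form, read 7.53, 7.54, 9.17 and 6.09 in PDGF+p53-/- tumors, 8.12, 7.15, 8.71 and 7.72 in PDGF+p53-/-RBPjk-/- tumors, 7.42, 6.74, 8.10 and 6.91 in p53-/-RBPjk-/- tumors and 11.15, 11.18, 10.29 and 10.66 in control brain. Its spread was widest among PDGF+p53-/- tumors, where replicates 3 and 4 lay at opposite ends. It differed from control by -3.24 in PDGF+p53-/- tumors, -2.90 in PDGF+p53-/-RBPjk-/- tumors and -3.53 in p53-/-RBPjk-/- tumors, each ± 0.48 (limma adjusted p of 4.63e-05, 0.000122 and 1.2e-05).

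Other genes of GABA handling moved the same way. All 5 measured of 6 listed fell in each tumor type, with medians of -1.63, -1.91 and -1.71. The vesicular GABA transporter Slc32a1 fell (-1.72, -1.91 and -1.94), as did the GABA transaminase Abat (-1.94, -1.98 and -2.52). The transporter Slc6a11 differed by -1.63, -1.99 and -1.71 and the dehydrogenase Aldh5a1, which completes GABA breakdown, by -0.93, -0.69 and -0.71. Slc6a11 is known mainly from astrocytes, whose markers were lower too, with 6 of 8 called in each tumor type.

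Among the calcium-binding proteins Calb1 showed the largest fall of the 10 genes in every tumor type. It read 4.99, 5.33, 6.90 and 4.62 in PDGF+p53-/- tumors, 5.46, 4.55, 6.09 and 5.52 in PDGF+p53-/-RBPjk-/- tumors, 4.01, 4.01, 5.26 and 3.92 in p53-/-RBPjk-/- tumors and 9.55, 9.54, 9.47 and 9.53 in control brain. Control arrays differed by less than 0.1, while replicate 3 was the highest array of each tumor group. The difference was -4.06 (16.7-fold) in PDGF+p53-/- tumors, -4.12 (17.4-fold) in PDGF+p53-/-RBPjk-/- tumors and -5.23 (37.5-fold) in p53-/-RBPjk-/- tumors, each ± 0.41. Calb1 was dim in p53-/-RBPjk-/- tumors, with a mean above only 14.6% of all genes and near that of Calb2, so the size of its fold there is uncertain.

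Pvalb, the marker of fast-spiking interneurons, read 5.36, 5.21, 6.05 and 5.26 in PDGF+p53-/- tumors, 5.58, 5.95, 6.46 and 5.56 in PDGF+p53-/-RBPjk-/- tumors, 6.15, 5.03, 5.80 and 4.96 in p53-/-RBPjk-/- tumors and 8.44, 8.81, 8.0 and 10.41 in control brain. Control replicate 4 stood well above the other control arrays. Pvalb differed from control by -3.44 in PDGF+p53-/- tumors, -3.03 in PDGF+p53-/-RBPjk-/- tumors and -3.43 in p53-/-RBPjk-/- tumors, each ± 0.40 (limma adjusted p of 3.76e-06, 1.22e-05 and 2.26e-06). Without control replicate 4 they came to -2.95, -2.53 and -2.93, and each stayed past the threshold.

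Calb2 was dim in every group. Its mean lay above only 12.5%, 9.55% and 11.9% of all genes in the 3 tumor types and above 22.8% in control brain. It read 4.06, 4.21, 3.99 and 4.01 in PDGF+p53-/- tumors, 3.82, 4.05, 3.59 and 3.68 in PDGF+p53-/-RBPjk-/- tumors, 4.03, 3.88, 4.67 and 3.56 in p53-/-RBPjk-/- tumors and 4.56, 4.29, 4.72 and 6.10 in control brain. Only replicate 4 of the control arrays was well apart from the tumor values. The difference was -0.85 (limma adjusted p = 0.0349) in PDGF+p53-/- tumors, -1.13 (0.00568) in PDGF+p53-/-RBPjk-/- tumors and -0.88 (0.0245) in p53-/-RBPjk-/- tumors, each ± 0.29. The exact permutation test of p53-/-RBPjk-/- tumors against control gave p = 0.0857 (two-sided, 4 against 4 arrays). Without control replicate 4 the differences were -0.46 (limma adjusted p = 0.109), -0.74 (0.0217) and -0.49 (0.0750), so that only the call in PDGF+p53-/-RBPjk-/- tumors was kept.

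The control arrays differed in regional markers, and some of the 10 genes moved with them. All 8 listed cerebellar genes were highest in control replicate 4: Gabra6, a GABA-A receptor subunit of granule cells, read 3.85, 3.80, 3.95 and 8.69 in control replicates 1 to 4, and Cbln3, a synaptic organizer of granule cells, read 5.38, 5.72, 5.75 and 9.09. The mean of the cerebellar list was 8.52 in that array, 6.15 to 6.37 in the other control arrays and 5.95 to 6.27 over the tumor arrays. Pvalb and Calb2 were highest in this same array, by the margins given above. Striatal genes ran another way. The mean of 5 striatal genes was 8.65 and 9.13 in control replicates 1 and 2, against 7.08 and 7.62 in replicates 3 and 4, and 5 of 5 were lowest in replicate 3. Gad1 and Gad2 were also highest in control replicates 1 and 2 and lowest in replicate 3. Sst and Calb1 hardly differed between control arrays (SD of 0.04 and 0.03, n = 4). The part of regional makeup in the differences from control was not tested beyond leaving out single arrays.

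**Figure D3:**
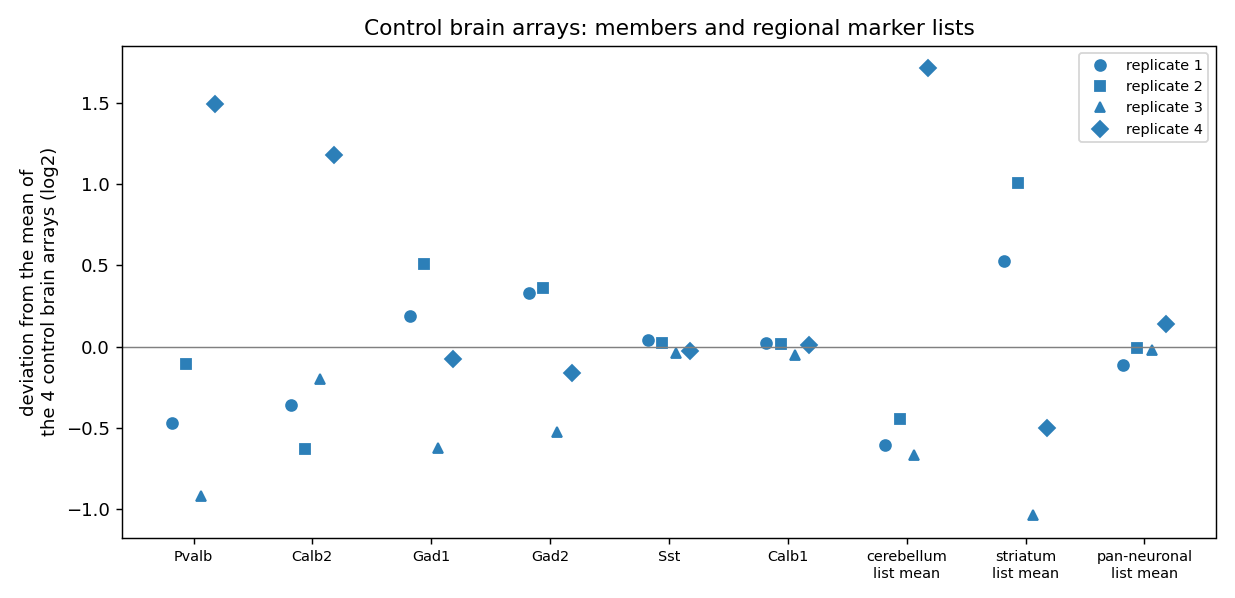
Deviation of each control brain array from the mean of the 4 control arrays (log2) for 6 of the genes and for the means of 3 marker lists; marker shape gives the replicate. Replicate 4 is far above the others for Pvalb (1.49), Calb2 (1.18) and the cerebellar list (1.71), while Gad1, Gad2 and the striatal list are highest in replicates 1 and 2.

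The neuropeptide genes fell in every tumor type, and Sst, Npy and Cck had their lowest means in p53-/-RBPjk-/- tumors. Sst read 7.72, 7.93, 9.94 and 6.98 in PDGF+p53-/- tumors, 7.88, 7.33, 9.25 and 7.86 in PDGF+p53-/-RBPjk-/- tumors, 6.58, 6.42, 7.20 and 6.64 in p53-/-RBPjk-/- tumors and 11.51, 11.50, 11.43 and 11.44 in control brain. Replicate 3 of both PDGF tumor types was well above the other arrays of its group but below control brain. Sst differed from control by -3.33 (10.1-fold) in PDGF+p53-/- tumors, -3.39 (10.5-fold) in PDGF+p53-/-RBPjk-/- tumors and -4.76 (27.1-fold) in p53-/-RBPjk-/- tumors, each ± 0.46.

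Npy, whose peptide is found in many somatostatin and neurogliaform interneurons, read 8.61, 8.80, 8.81 and 7.30 in PDGF+p53-/- tumors, 8.66, 8.13, 10.40 and 8.60 in PDGF+p53-/-RBPjk-/- tumors, 6.84, 6.90, 7.73 and 7.05 in p53-/-RBPjk-/- tumors and 11.66, 11.05, 11.03 and 11.75 in control brain. One PDGF+p53-/-RBPjk-/- array, replicate 3, came within 0.62 of the lowest control array. The difference was -2.99 (7.97-fold) in PDGF+p53-/- tumors, -2.42 (5.37-fold) in PDGF+p53-/-RBPjk-/- tumors and -4.24 (18.9-fold) in p53-/-RBPjk-/- tumors, each ± 0.41.

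Cck read 6.17, 6.77, 7.49 and 5.98 in PDGF+p53-/- tumors, 6.20, 5.16, 7.55 and 6.41 in PDGF+p53-/-RBPjk-/- tumors, 4.79, 4.63, 5.72 and 5.32 in p53-/-RBPjk-/- tumors and 9.58, 9.16, 9.51 and 9.14 in control brain. All p53-/-RBPjk-/- arrays were below all PDGF+p53-/- arrays. Cck differed from control by -2.75 in PDGF+p53-/- tumors, -3.02 in PDGF+p53-/-RBPjk-/- tumors and -4.24 in p53-/-RBPjk-/- tumors, each ± 0.40. In p53-/-RBPjk-/- tumors Cck was dim, with a mean above only 26.8% of all genes. The size of its differences between that group and the others is therefore uncertain.

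Vip, a marker of interneurons that inhibit other interneurons, changed least among the 4 peptide genes. It read 5.32, 5.32, 5.54 and 4.73 in PDGF+p53-/- tumors, 5.0, 5.40, 5.46 and 5.13 in PDGF+p53-/-RBPjk-/- tumors, 4.77, 5.11, 5.38 and 4.73 in p53-/-RBPjk-/- tumors and 6.61, 6.53, 7.50 and 6.82 in control brain. The tumor groups overlapped each other fully and lay about 1 log2 unit or more below the lowest control array. Vip differed from control by -1.64 in PDGF+p53-/- tumors, -1.62 in PDGF+p53-/-RBPjk-/- tumors and -1.87 in p53-/-RBPjk-/- tumors, each ± 0.22, with limma adjusted p between 1.92e-06 and 1.38e-05.

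Promoters were read for a motif of the cAMP-responsive factor CREB because Sst and Vip are its textbook targets. The core letters of a CREB site, TGACG, or CGTCA on the other strand, were searched in the 250 bases before the gene start in the RefSeq promoter table (mouse build GRCm38.p6). They occurred in 5836 of 32851 promoters (17.8%). The table lists 8 of the 10 genes by name, with 9 promoters, and 4 of these held the letters, namely those of Sst, Vip, Cck and Gad2. Because Sst and Vip were the reason for the search, the share among the members cannot be compared with that of all promoters. Both the genes with the letters and those without fell in every tumor type. The 110 bases before the start of these 4 genes, shown because they hold the letters, are given 5′ to 3′ on the gene's strand, with the matches in capitals.
Sst, chr16:23890845-23890954, minus strand: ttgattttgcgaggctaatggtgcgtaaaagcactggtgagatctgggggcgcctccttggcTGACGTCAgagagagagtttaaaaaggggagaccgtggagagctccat
Vip, chr10:5639108-5639217, plus strand: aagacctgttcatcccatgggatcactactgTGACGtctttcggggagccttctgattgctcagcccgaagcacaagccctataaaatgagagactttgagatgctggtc
Cck, chr9:121495695-121495804, minus strand: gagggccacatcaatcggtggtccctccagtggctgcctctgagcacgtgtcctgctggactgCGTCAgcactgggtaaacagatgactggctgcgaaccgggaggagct
Gad2, chr2:22622217-22622326, plus strand: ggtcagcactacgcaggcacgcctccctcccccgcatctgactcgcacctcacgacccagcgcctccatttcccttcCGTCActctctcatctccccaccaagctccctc
In Sst the matches of both strands overlap and make up the palindrome printed in capitals, which begins 48 bases before the start. The match begins 79 bases before the start in Vip, 47 in Cck and 33 in Gad2. The core letters of RBPJ binding, TGGGAA or TTCCCA, were found in 21.6% of promoters in the same window. Among the 9 promoters of the members, 1 held them, that of Cck, 206 bases before the start and outside the stretch printed. A match of letters is a description and no measurement of binding.

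Reln, which encodes the secreted matrix glycoprotein reelin, read 6.68, 6.27, 6.77 and 6.0 in PDGF+p53-/- tumors, 6.83, 7.77, 7.63 and 6.17 in PDGF+p53-/-RBPjk-/- tumors, 7.23, 7.04, 6.83 and 6.88 in p53-/-RBPjk-/- tumors and 8.07, 8.57, 8.70 and 8.64 in control brain. All tumor arrays were below control brain, and replicate 2 of PDGF+p53-/-RBPjk-/- tumors came within 0.30 of the lowest control array. Reln differed from control by -2.06 in PDGF+p53-/- tumors, -1.39 in PDGF+p53-/-RBPjk-/- tumors and -1.50 in p53-/-RBPjk-/- tumors, each ± 0.28 (limma adjusted p of 1.62e-05, 0.000662 and 0.000277). None of the 3 listed reelin receptor and adapter genes (Lrp8, Vldlr and Dab1) passed the threshold in any tumor type, with differences from control between -0.39 and 0.16.

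Between tumor types the RBPjk deletion in PDGF-driven tumors went with no called change in the 10 genes. PDGF+p53-/-RBPjk-/- tumors against PDGF+p53-/- tumors gave 0 of 10 by limma, where 0.0201% of all genes were called, and 1 of 10 had an unadjusted p under 0.05. That gene was Reln, at 0.67 with a 95% interval of 0.09 to 1.25 (limma adjusted p = 0.892; exact permutation p = 0.171), and its arrays overlapped between the groups. The other intervals included 0 and were wide: Gad1 differed by -0.04 (-0.67 to 0.59), Sst by -0.06 (-1.04 to 0.91), Npy by 0.57 (-0.29 to 1.43) and Gad2 by 0.34 (-0.67 to 1.35). A change of up to about 2-fold in either direction is therefore within the interval for Sst.

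In p53-/-RBPjk-/- tumors, which lacked the PDGF-B virus, Npy was lower than in PDGF+p53-/-RBPjk-/- tumors. The arrays did not overlap, with 6.84 to 7.73 in p53-/-RBPjk-/- tumors against 8.13 to 10.40 in PDGF+p53-/-RBPjk-/- tumors, and the difference was -1.82 ± 0.41 (3.52-fold; limma adjusted p = 0.0224). It was the 1 call among the 10 genes, while 2.63% of all genes were called lower. Without replicate 3 of PDGF+p53-/-RBPjk-/- tumors, the array with the highest Npy, it came to -1.33 (adjusted p = 0.0661). Sst differed by -1.37 ± 0.46 (limma adjusted p = 0.122) with no overlap of arrays, which 6.25% of all genes showed in this direction, Cck by -1.22 ± 0.40 (0.106) and Calb1 by -1.11 ± 0.41 (0.161), so these 3 did not pass. With array weights Sst (limma adjusted p = 0.0281), Cck (0.0183) and Calb1 (0.0294) were called. Over all genes that setting gave 1197 calls, against 651 in the main fit. These tumor groups differ in the PDGF-B virus and in the Cre driver, which cannot be told apart. Sex is nearly tied to them as well, since the Xist pattern of female tissue was present on 4 of 4 p53-/-RBPjk-/- arrays but on 1 of 4 in each PDGF tumor type and on 2 of 4 control arrays. With sex as a term, Npy was at -2.52 (limma adjusted p = 0.0157), while the calls over all genes came to 61, against 651 without it.

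Against PDGF+p53-/- tumors, p53-/-RBPjk-/- tumors had lower Cck. These groups differ in RBPjk, in the PDGF-B virus and in the Cre driver, and nearly in sex, which cannot be told apart. The arrays lay at 4.63 to 5.72 in p53-/-RBPjk-/- tumors against 5.98 to 7.49 in PDGF+p53-/- tumors, a difference of -1.49 ± 0.40 (2.81-fold; limma adjusted p = 0.0349). It was again 1 call of 10, with 3.61% of all genes called lower. Because Cck is dim in p53-/-RBPjk-/- tumors, the size of this fold is uncertain. Without replicate 3 of PDGF+p53-/- tumors the difference was -1.19 (adjusted p = 0.112), and with sex as a term it was -1.73 (0.102), with 183 calls over all genes, against 1105 without the term. Sst was at -1.43 ± 0.46 (limma adjusted p = 0.0799), Npy at -1.25 ± 0.41 (0.0842, and 0.0334 with the sex term) and Calb1 at -1.16 ± 0.41 (0.107). Reln was at 0.56 ± 0.28 (0.282), with no overlap between the arrays, which 9.75% of all genes also showed in either direction. Gad1, Gad2, Pvalb, Vip and Calb2 differed by between -0.63 and 0.25 in the comparisons of p53-/-RBPjk-/- tumors with either PDGF tumor type.

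**Figure D4:**
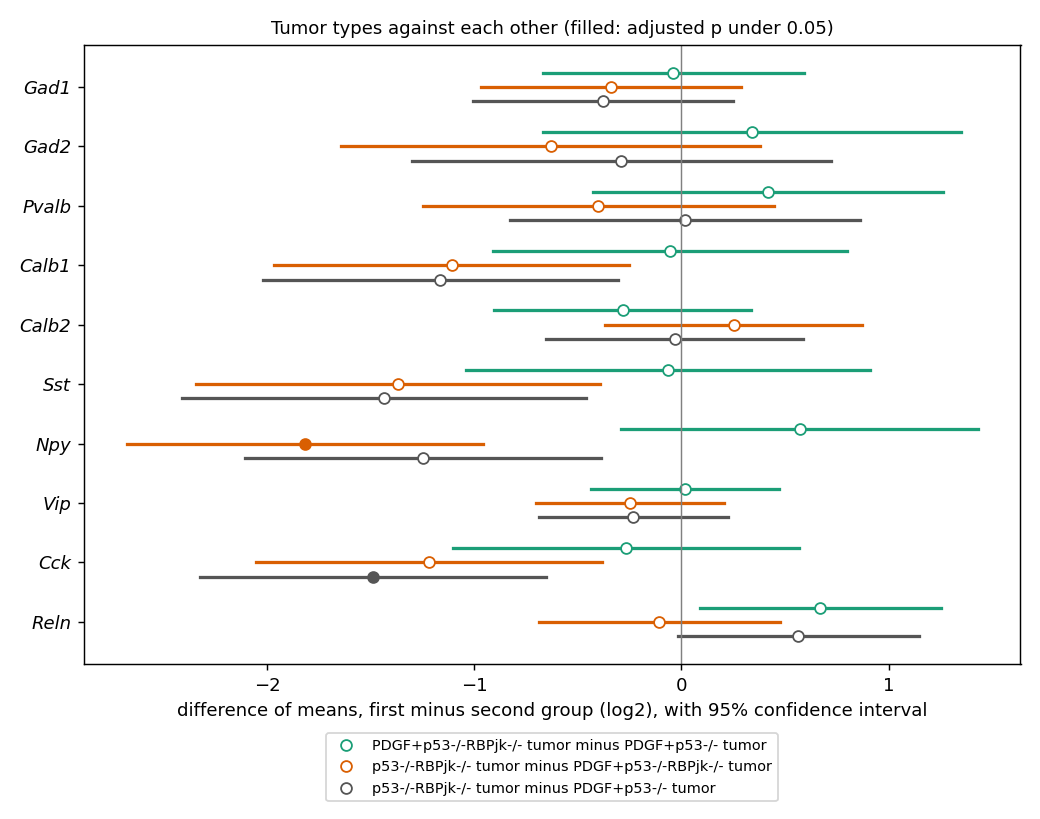
Differences between tumor types (first minus second group named, log2) with 95% confidence intervals of the limma fit, 1 row per gene; filled circles have an adjusted p under 0.05. Npy in p53-/-RBPjk-/- minus PDGF+p53-/-RBPjk-/- tumors (-1.82) and Cck in p53-/-RBPjk-/- minus PDGF+p53-/- tumors (-1.49) are the filled points, and Sst and Calb1 lie left of 0 in both of these comparisons.

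Pan-neuronal genes were lower in p53-/-RBPjk-/- tumors as well. Their medians were -0.73 against PDGF+p53-/-RBPjk-/- tumors and -0.71 against PDGF+p53-/- tumors, with 3 of 12 called lower in each (Nefm, Syn1 and Eno2). Markers of oligodendrocytes, microglia and astrocytes were also mostly below 0. Endothelial markers had medians of -0.14 against PDGF+p53-/-RBPjk-/- tumors and -0.04 against PDGF+p53-/- tumors, with 5 of 8 below 0 in each. They ran from -0.49 to 0.58 with 0 called in the first comparison. In the second they ran from -0.64 to 0.70 with 1 of 8 called lower. Against PDGF+p53-/-RBPjk-/- tumors, 7 of 7 oligodendrocyte markers (median -0.58) and 7 of 7 microglial markers (-0.47) were below 0 with 0 called, and the astrocyte median was -0.34 with 1 of 8 called. Against PDGF+p53-/- tumors, 7 of 7 oligodendrocyte markers (-0.73) and 7 of 7 microglial markers (-0.62) were below 0 with 0 called, and the astrocyte median was -0.63 with 3 of 8 called. The part of these cells in the differences of Npy and Cck was not tested. To set them beside neuronal RNA, each gene was also expressed relative to the mean of the 12 pan-neuronal genes on the same array, with the control mean set to 0. On this scale Npy was -1.26 to -1.19 in p53-/-RBPjk-/- tumors, against -0.52 to 0.85 in PDGF+p53-/-RBPjk-/- tumors and -0.32 to 0.40 in control brain. Cck was -1.44 to -0.92 in p53-/-RBPjk-/- tumors and -0.86 to -0.15 in PDGF+p53-/- tumors, against -0.35 to 0.34 in control brain. The means on this scale were -1.22 in p53-/-RBPjk-/- tumors and -0.02 in PDGF+p53-/-RBPjk-/- tumors for Npy, and -1.21 in p53-/-RBPjk-/- tumors and -0.44 in PDGF+p53-/- tumors for Cck. Both pairs of groups lie closer together here than on the RMA scale, and the Cck arrays barely separate. These values are a description within arrays and were not tested.

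The same scale separates the 10 genes. Calb1 was below control brain on all tumor arrays, from -2.50 to -0.92, a larger fall than that of the pan-neuronal mean. Sst was below the control range (-0.17 to 0.15) in PDGF+p53-/-RBPjk-/- tumors (-1.42 to -0.40) and p53-/-RBPjk-/- tumors (-1.89 to -1.56). In PDGF+p53-/- tumors Sst ran from -1.99 to 0.17. Means of Pvalb were -1.14, -0.62 and -0.40 and those of Gad2 -0.93, -0.49 and -0.50 in the 3 tumor types. Both genes had arrays within the control range in each tumor type. Gad1 was at 0.06 to 0.43 in PDGF+p53-/- tumors and 0.16 to 0.45 in PDGF+p53-/-RBPjk-/- tumors, both within the control range of -0.60 to 0.51. In p53-/-RBPjk-/- tumors Gad1 was at 0.99, 0.01, 0.70 and 0.71, so that 3 of 4 arrays lay above every control array. Reln fell less than neuronal RNA in p53-/-RBPjk-/- tumors (0.72 to 2.06) and PDGF+p53-/-RBPjk-/- tumors (0.32 to 2.0), while PDGF+p53-/- tumors (-0.02 to 0.91) overlapped control brain (-0.31 to 0.23). Vip (0.37 to 1.53) and Calb2 (0.49 to 2.44) had positive values on all tumor arrays. In both PDGF tumor types some arrays lay within the control range, which reached 0.66 for Vip and 1.04 for Calb2. Means of Vip lay above only 24.7% to 29.9% of all genes in the tumors, and Calb2 was dimmer still, so the size of these values is uncertain.

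**Figure D5:**
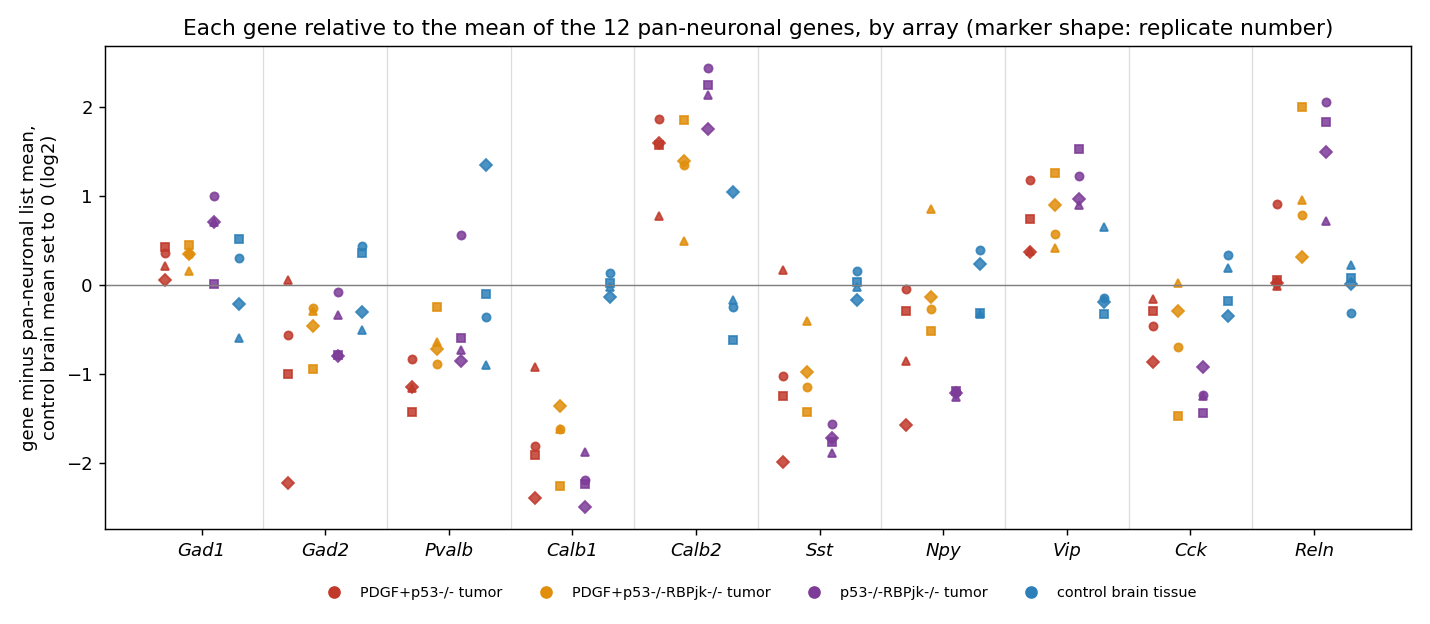
Each gene minus the mean of 12 pan-neuronal genes on the same array (log2), with the mean of the control arrays set to 0; colors give the group, with control brain at the right of each gene, and marker shape gives the replicate. Calb1 lies below 0 on all tumor arrays, Gad1 lies above the control range (-0.60 to 0.51) on 3 of 4 p53-/-RBPjk-/- arrays, and Npy of the 4 p53-/-RBPjk-/- arrays sits together at -1.26 to -1.19.

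Single arrays stood apart within tumor groups. Replicate 3 was the highest array for 9 of the 10 genes in PDGF+p53-/- tumors and for 8 of 10 in PDGF+p53-/-RBPjk-/- and in p53-/-RBPjk-/- tumors, and replicate 4 was the lowest for 8 of 10 in PDGF+p53-/- tumors. The pan-neuronal mean was highest in replicate 3 of each tumor group. In replicate 3 of PDGF+p53-/- tumors other normal tissue markers were high too: the oligodendrocyte list was at 8.69, against 6.36 to 7.36 in the other arrays of that group, the astrocyte list at 8.76, against 7.39 to 7.93, and the striatal list at 7.80, against 6.52 to 6.76. Leaving out each array in turn kept all calls against control brain except some of Calb2 in PDGF+p53-/- and in p53-/-RBPjk-/- tumors. The part of admixed normal tissue in the differences between tumor types was not tested.

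Transcription factors that specify interneurons had smaller median differences from control than the 10 genes. The mean of this list was only 6.17 to 6.38 on the control arrays, near the array medians of 5.97 to 6.06. Low signal leaves less room to fall, which limits the comparison, and its part was not tested. Of 13 measured among 16 listed transcription factors, 4 fell in PDGF+p53-/- tumors, 4 fell and 1 rose in PDGF+p53-/-RBPjk-/- tumors, and 2 fell and 1 rose in p53-/-RBPjk-/- tumors, with medians of -0.22, -0.23 and -0.12. The share that fell was above that of all genes called lower in PDGF+p53-/- (17.6%) and PDGF+p53-/-RBPjk-/- tumors (17.9%). In p53-/-RBPjk-/- tumors it was below that of all genes (20.4%). The share that rose was below that of all genes called higher in each tumor type (13.6%, 15.7% and 16.4%). Dlx6, a homeobox gene of the ventral forebrain, read 7.49, 6.50, 7.81 and 6.71 in p53-/-RBPjk-/- tumors, against 5.62, 5.83, 5.73 and 6.37 in PDGF+p53-/-RBPjk-/- tumors, a difference of 1.24 ± 0.31 (limma adjusted p = 0.0343; 0.637% of all genes were called higher in this comparison), and 7.45, 7.83, 6.54 and 7.03 in control brain. The p53-/-RBPjk-/- arrays were all above the PDGF+p53-/-RBPjk-/- arrays and overlapped control brain, from which they differed by -0.08 ± 0.31 (adjusted p = 0.864). Its neighbor gene in the family, Dlx5, was at 0.80 in the same tumor comparison (adjusted p = 0.157). Dlx1 fell in each tumor type (-0.99, -1.26 and -0.90). Lhx6 and Nkx2-1, transcription factors of the medial ganglionic eminence lineage, differed from control by -0.27 to 0.14 and did not pass the threshold.

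Other genes of interneuron classes fell in 11 of 16 cases in each tumor type, and 2 of 16 rose, a share near or below that of all genes called higher. The medians of the list were -1.01, -1.24 and -1.31. Lamp5, a marker of neurogliaform cells, fell (-3.04, -2.93 and -3.26), as did the fast potassium channel gene Kcnc2 (-2.84, -2.99 and -3.23). The presynaptic complexin Cplx1 fell (-2.97, -2.92 and -3.08), and so did the cannabinoid receptor Cnr1, typical of cholecystokinin interneurons (-2.17, -1.90 and -2.35). Both genes that rose were the same in all 3 tumor types. The neurexin ligand Nxph1 rose by 1.64, 1.93 and 1.16, and the neuregulin receptor Erbb4 by 0.72, 0.74 and 1.29. Nxph1 was at 8.28 to 10.03 over the tumor arrays and 7.72 to 8.11 in control brain, with no overlap, and Erbb4 at 8.73 to 10.13 over the tumor arrays and 8.23 to 8.43 in control brain.

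The peptide system around these genes was lower as well. Of 19 measured among 20 other neuropeptide genes, 12, 11 and 13 fell in the 3 tumor types and 0 rose (medians -0.65, -0.60 and -0.73), led by Tac1, Penk, Tac2 and Nts. Tac1 and Penk, which striatal projection neurons express, were lowest in control replicate 3 (7.95 and 11.02), the array with the lowest striatal list. Genes of peptide processing and of the secretory granule fell in 12, 11 and 12 of 12 cases (medians -1.45, -1.57 and -1.99). The granin Chgb fell (-2.90, -2.82 and -4.03), and it was also lower in p53-/-RBPjk-/- tumors than in PDGF+p53-/-RBPjk-/- tumors (-1.20 ± 0.31, limma adjusted p = 0.0395) and than in PDGF+p53-/- tumors (-1.13 ± 0.31, 0.0387). The neurotrophin-inducible granule protein gene Vgf read 5.76, 5.48, 5.67 and 5.29 in p53-/-RBPjk-/- tumors, against 6.74, 6.96, 7.46 and 6.07 in PDGF+p53-/-RBPjk-/- tumors (-1.26 ± 0.24, adjusted p = 0.00862). The processing enzyme Cpe was lower in p53-/-RBPjk-/- than in PDGF+p53-/- tumors by -0.95 ± 0.20 (adjusted p = 0.00954). Of the 12 genes of this list, 3 were called lower in p53-/-RBPjk-/- than in PDGF+p53-/-RBPjk-/- tumors, where 2.63% of all genes were. Against PDGF+p53-/- tumors 4 of 12 were called lower, and 3.61% of all genes. Sex is nearly tied to these tumor groups, a limit that holds for these calls and for that of Dlx6. Of 15 receptor genes for the member peptides, 7, 8 and 8 fell and 0 rose. The neuropeptide Y receptor Npy2r differed from control by -2.05, -1.78 and -2.28, the somatostatin receptor Sstr2 by -1.89, -1.82 and -2.58, and the cholecystokinin receptor Cckbr by -1.66, -1.52 and -1.48.

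Likeness of pattern was measured by Pearson correlation over the 16 arrays. Sst and Cck shared their 2 nearest genes, Mal2 and Sv2b, the second a synaptic vesicle glycoprotein gene, with r of 0.991 and 0.989 for Sst and of 0.990 and 0.991 for Cck. Calb1 lay nearest to Dnajc6, which encodes the clathrin uncoating factor auxilin (r = 0.992), and Gad2 to Sgtb (0.980). Reln and Calb2 had lower best values, 0.933 with Nagk and 0.913 with Nat8f5. The control arrays stand apart from the tumor arrays on both axes of such a relation. With the mean of each tumor group taken off and control brain left out (12 arrays), Calb1 was again nearest to Dnajc6 (0.974), Sst to Pgm2l1 (0.962), Gad2 to Strbp (0.964), Cck to Ccdc3 (0.950) and Npy to Ccdc3 (0.913) and then to the granin gene Scg2 (0.895). These correlations describe arrays that share tissue makeup, and no test was made.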

How the data were processed

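The deposited table holds log2 expression values of 35556 probe sets on 16 Affymetrix arrays, which the authors made with RMA and oligo according to the submitters' processing notes. The sources used here name no versions and no annotation build. RMA equalizes the distributions of arrays (medians of 5.97 to 6.06), so a change in total RNA cannot be seen. Precision is limited by the number of arrays. Genes were named from the array annotation (21789 probe sets with 1 symbol, 1621 with several, 12146 unnamed; 21698 matched RefSeq), and the probe set with the highest mean was taken for each gene, leaving 19938 genes; 999 had several. Groups came from the sample titles.

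All 16 arrays entered 1 limma fit (limma 3.58.1, R 4.3.3, lmFit and eBayes, 12 residual and 5.33 prior degrees of freedom), and 6 comparisons were tested two-sided with Benjamini-Hochberg adjustment over all genes at 0.05, which is what "rose", "fell" and "called" refer to. Each difference of group means (log2) has the standard error of the fit. Single values were also compared by exact permutation, whose smallest p for 4 against 4 is 0.0286. The fit was tested on simulated data. Arrays of 1 group correlated with r of at least 0.9675 and none were duplicates. Replicate numbers occur in all groups. Over all genes, same-numbered arrays did not deviate together (median r of 0.03, from -0.12 to 0.18 over 24 pairs), so the main fit has no block. Among the 10 genes, replicate 3 was the highest array for 9, 8 and 8 in the 3 tumor types and the lowest for 6 in control brain. The check over all genes does not settle pairing for these genes, and the replicate block was run as an alternative. Alternatives were another choice of probe set, all probe sets, no dim genes, trend and robust settings, array weights, housekeeping centring, 2 groups only, replicate block, sex pattern and leaving out each array. Named were all 10 members, up to 4 called genes with the largest difference per list and comparison, and the nearest genes by correlation. Cerebellar and striatal genes, Dlx5, Lhx6, Nkx2-1, Aldh5a1, Erbb4 and the reelin receptors were added after their values were seen. The members and lists were chosen with earlier results of these data known. Tables and figures were made with Python 3.11.15, numpy 2.4.6, pandas 2.3.3, scipy 1.17.1 and matplotlib 3.10.9.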

Additional observations from a re-analysis of the deposited data

Results flagged for a closer look

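Of 44 sets of 4 arrays checked for an array far from the others (chance gives about 1 in 20), 2 stood out. Npy was 7.30 in replicate 4 of PDGF+p53-/- tumors, against 8.61 to 8.81 in the other arrays of that group. Calb1 was 5.26 in replicate 3 of p53-/-RBPjk-/- tumors, against 3.92 to 4.01 in the others. 2 genes differed between tumor types by the test of the difference itself. Npy was lower in p53-/-RBPjk-/- than in PDGF+p53-/-RBPjk-/- tumors, at -1.82 (limma adjusted p = 0.0224). Cck was lower in p53-/-RBPjk-/- than in PDGF+p53-/- tumors, at -1.49 (limma adjusted p = 0.0349).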

How the results depend on the processing

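Against control brain, the calls of all genes but Calb2 were kept in all 26 alternatives, and Calb2 in 15 of 25 for PDGF+p53-/- tumors, in 25 of 25 for PDGF+p53-/-RBPjk-/- tumors and in 21 of 25 for p53-/-RBPjk-/- tumors, since the filter on dim genes removed it. For Calb2 in PDGF+p53-/- tumors limma adjusted p reached 0.0594 with every probe set, 0.0622 with 2 groups only, 0.0538 with the replicate block, 0.0599 with the sex term and at most 0.109 with an array left out. The count of genes called against control was 9 to 10, 10 and 9 to 10 with an array left out. In p53-/-RBPjk-/- against PDGF+p53-/-RBPjk-/- tumors the count among the 10 genes was 1 in the main fit. It was 0 with every probe set, 0 with 2 groups only, 4 with array weights, 3 with the replicate block and 0 to 2 with an array left out. The calls over all genes moved too, from 651 in the main fit to 395 with 2 groups only. They came to 1197 with array weights, 682 with the replicate block and 176 to 802 with an array left out. With every probe set, 351 probe sets were called. In p53-/-RBPjk-/- against PDGF+p53-/- tumors the count among the 10 genes was 1 in the main fit. It was 0 with every probe set, trend and robust settings, array weights, housekeeping centring or 2 groups only. With the replicate block it was 3, and with an array left out it was 0 to 3. Calls over all genes were 1105 in the main fit, 1079 with trend and robust settings, 773 with array weights and 1276 with housekeeping centring. They were 289 with 2 groups only, 1150 with the replicate block and 553 to 1323 with an array left out. With every probe set, 991 probe sets were called. Npy kept its call in 20 of 26 alternatives (adjusted p 0.00588 to 0.0661) and Cck in 15 of 26 (0.00994 to 0.112). The calls added by the replicate block were Sst and Cck in the first of these comparisons and Sst and Calb1 in the second. In PDGF+p53-/-RBPjk-/- against PDGF+p53-/- tumors the count among the 10 genes stayed at 0.
Signs turned only in uncalled differences between tumor types. PDGF+p53-/-RBPjk-/- against PDGF+p53-/- tumors gave 0.33 for Sst, 0.18 for Cck, 0.25 for Calb1 and 0.13 for Gad1 with array weights. Without replicate 3 of both PDGF tumor types, an alternative chosen after seeing the data, Sst was at 0.14, Calb1 at 0.19 and Gad1 at 0.0044, Reln at 0.069 in p53-/-RBPjk-/- against PDGF+p53-/-RBPjk-/- tumors and Gad2 at 0.24 in p53-/-RBPjk-/- against PDGF+p53-/- tumors. With housekeeping centring, which moved the median of all genes to -0.15 in PDGF+p53-/- tumors against control, Reln was at 0.011 and Calb2 at 0.091 in these 2 comparisons. Pvalb in p53-/-RBPjk-/- against PDGF+p53-/- tumors was at -0.026 with array weights and -0.43 with the sex term. With an array left out, PDGF+p53-/-RBPjk-/- against PDGF+p53-/- tumors ran from -0.46 to 0.53 for Sst, -0.15 to 0.12 for Vip, -0.68 to 0.12 for Cck, -0.34 to 0.42 for Calb1, -0.18 to 0.15 for Gad1 and -0.16 to 0.87 for Gad2. Likewise Reln ran from -0.42 to 0.12 in p53-/-RBPjk-/- against PDGF+p53-/-RBPjk-/- tumors, and Pvalb from -0.21 to 0.21, Calb2 from -0.24 to 0.13 and Gad2 from -0.79 to 0.24 in p53-/-RBPjk-/- against PDGF+p53-/- tumors. The causes were not tested.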
